A study of Mus musculus with 6 samples.

Results

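The genes described here are the tropomyosins (Tpm1, Tpm2, Tpm3 and Tpm4), the calponins (Cnn1, Cnn2 and Cnn3), the transgelins (Tagln and Tagln2) and caldesmon (Cald1). They were taken by gene symbol from a table of 18112 genes, and all 10 were found in it. RNA from primary aortic vascular smooth muscle cells (VSMCs) of mice was sequenced in 3 SMYD2 Flox and 3 SMYD2 KO libraries, to ask which transcripts differ when smooth muscle cells lack the lysine methyltransferase SMYD2. Values are FPKM, fragment numbers divided by transcript length and library depth, so levels of different genes can be set side by side. Judged by the spacing of low FPKM values, a library held about 16850000 to 19950000 fragments.

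All mice were C57BL/6 and 8 to 10 weeks old. Both groups carried the floxed Smyd2 allele on both chromosomes (Smyd2fl/fl), and the KO mice (Smyd2SMC-/-) also carried a Cre transgene driven by the promoter of Tagln, a member of the families described here, whereas the Flox controls were littermates without Cre. The Cre transgene and the loss of Smyd2 therefore cannot be told apart in these libraries. The labels give passage 6 and medium with 10% serum, while the methods of the study give passage 4, overnight starvation and another RNA extraction, and which of these applies was not settled here. It was not stated whether the 3 libraries of a group came from separate mice, so the p-values measure the spread between these libraries, which may in part be technical.

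These proteins decorate actin filaments. Tropomyosins are coiled-coil dimers that lie along the filament and govern the access of myosin and other proteins to it. Calponins and caldesmon bind actin and tropomyosin and hold back the ATPase of myosin in smooth muscle, and transgelins are small calponin-related proteins that bind and bundle actin. In each family some genes are strongly expressed in contractile smooth muscle (Tpm1, Tpm2, Cnn1 and Tagln), and others are found in most cell types (Tpm3, Tpm4, Cnn2, Cnn3 and Tagln2). Cald1 makes a heavy form in contractile smooth muscle and a light form elsewhere, and Tpm1 likewise makes smooth muscle and cytoskeletal forms. FPKM per gene does not separate those forms.

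The targeted gene, Smyd2, measured 7.87, 3.1 and 3.0 FPKM in Flox replicates 1, 2 and 3, and 1.67, 0.40 and 0.80 FPKM in KO replicates 1, 2 and 3. Every KO library was below every Flox library, as the labels imply. The difference was -1.48 ± 0.39 (SE) on the log2(FPKM + 1) scale, with an adjusted p of 0.105 without a block and 0.0189 with the replicate number as a replicate block. All log2 differences of genes below are on that scale, which understates the change of genes with few FPKM, and positive values mean higher in KO.

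The libraries numbered 1 stood apart from the others. The median absolute difference over the 12565 genes tested was 0.12 log2 units between Flox replicates 2 and 3 and 0.14 between KO replicates 2 and 3. Flox replicate 1 differed from Flox replicates 2 and 3 by 0.35 and 0.31, and KO replicate 1 from KO replicates 2 and 3 by 0.36 and 0.33. Values with and without replicate 1 are therefore given for several results below. Replicate 1 was left out because it stood apart, so the fit of replicates 2 and 3 alone has a narrow spread. It called 3650 of the 12565 genes, and its adjusted p-values are given as a description.

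The label of smooth muscle was borne out in part. Acta2, the smooth muscle actin, was abundant at 761, 682 and 683 FPKM in Flox and 201, 268 and 262 FPKM in KO. Some defining genes of the mature contractile cell were near 0, with at most 0.22 FPKM of Myh11, at most 0.48 of the coactivator Myocd and at most 0.22 of Des in any library. Synpo2 was at most 0.38 FPKM. Other markers of the list were expressed, with Smtn at 45.9 to 63.1 FPKM and Myl9 at 10.4 to 93.1 FPKM over the libraries. Mylk was at 1.02 to 9.68, Lmod1 at 1.22 to 6.02 and Actg2 at 0.18 to 2.38 FPKM. The 12 smooth muscle markers summed to 1019, 898 and 891 FPKM in Flox and 276, 505 and 457 FPKM in KO. Acta2 made up most of every sum, so the sums mainly follow that gene and not the list as a whole. Of the 8 abundant enough to test 1, Acta2, was called lower, beside 1.21% of all tested genes. The median log2 difference of the 8 was -0.91, but it was -1.72 in the replicate 1 pair and -0.05 in replicates 2 and 3. Mylk and Lmod1 had positive differences (0.81 and 0.24), the rest of the 8 negative ones, and Smtn was nearly level at -0.05. The 8 include Tagln and Cnn1, which are also among the 10 genes described here. Fibroblast markers were abundant as well, and their values are given with the other marker lists. In these bulk samples fewer cells of a type and less RNA per cell cannot be told apart.

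Most of the 10 genes were among the abundant transcripts of these cells, and 7 ranked among the 500 most abundant of the table by mean FPKM. Tpm1 was highest, ranked 103rd, with a mean of 564 ± 154 FPKM (SD, n = 3) in Flox and 505 ± 59.8 (n = 3) in KO. Cald1, Tpm4 and Cnn2 followed with Flox means of 443 ± 48.0, 394 ± 20.5 and 385 ± 21.1 FPKM (SD, n = 3 each), and each overlapped its neighbours in this order, Tpm1 included, over the Flox libraries. Cnn3, Tagln2 and Tpm3 came next with Flox means of 218 ± 47.3, 196 ± 24.1 and 183 ± 11.1 FPKM (SD, n = 3 each), again with overlapping libraries. Tagln and Tpm2 were lower, at 76.6 ± 5.56 and 72.0 ± 27.7 FPKM (SD, n = 3 each) in Flox. Cnn1, the calponin of contractile smooth muscle, was far below all of them at 10.3 ± 9.26 FPKM (SD, n = 3), ranked 7742nd. Apart from Tpm1, the genes typical of contractile smooth muscle were thus the least abundant of the 10. Tagln3, a transgelin of neurons outside the set, was at most 0.63 FPKM in any library.

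**Figure D1:**
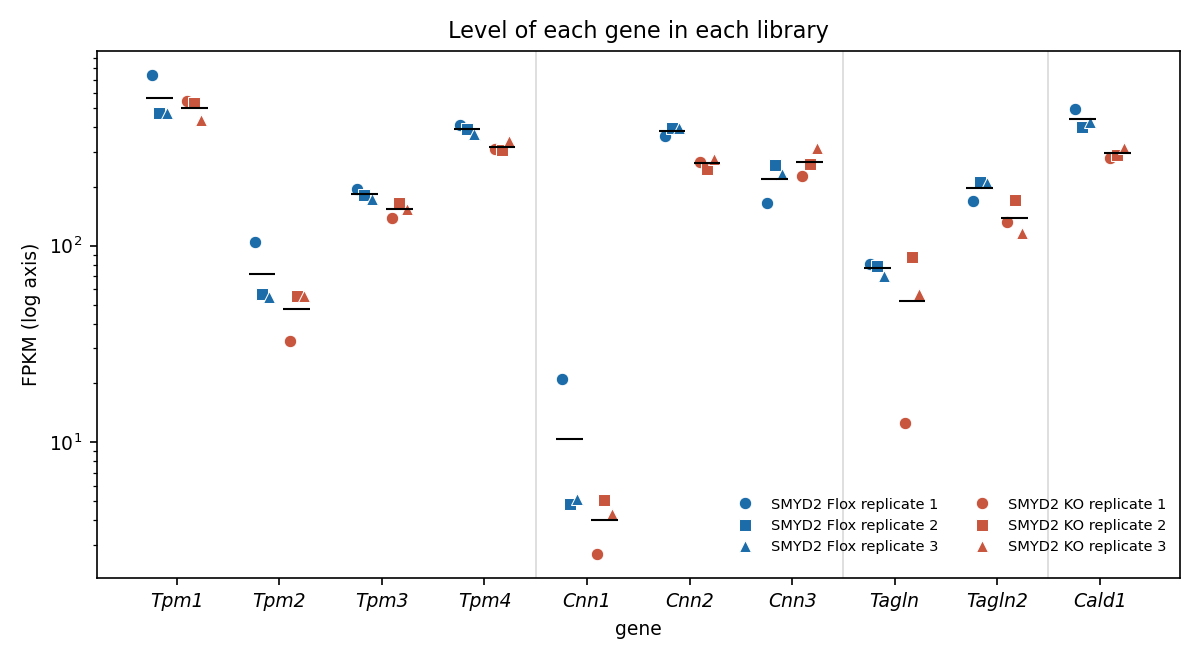
FPKM (log axis) of the 10 genes in each library, with circles, squares and triangles for replicates 1, 2 and 3, SMYD2 Flox in blue and SMYD2 KO in red, and black lines for the means of 3 libraries. Cnn1 and Tpm2 of Flox replicate 1 sit at 21.0 and 104 FPKM, above all other libraries, and Tagln of KO replicate 1 at 12.5 FPKM, below all others.

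The genes lie on 7 chromosomes by the GENCODE M21 annotation of GRCm38. Chromosome 9 holds 3 of them, Cnn1 (chr9:22099216-22109630, plus strand), Tagln (chr9:45929619-45936058, minus strand) and Tpm1 (chr9:67022590-67049406, minus strand). Cnn3 (chr3:121426497-121458207) and Tpm3 (chr3:90072649-90100902) share chromosome 3. Tagln2 (chr1:172500047-172507380, plus strand) is on the chromosome of the targeted Smyd2 gene (chr1:189880492-189922363, minus strand). Cald1 (chr6:34598500-34775473), Cnn2 (chr10:79988584-79996062), Tpm2 (chr4:43514711-43523765) and Tpm4 (chr8:72134975-72153142) each lie alone.

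Contractile smooth muscle genes are classically driven by serum response factor (SRF) and its coactivators of the myocardin family through the CArG box. Of the 10 genes, 9 had promoters in the RefSeq table for GRCm38.p6, 11 promoters in all, each reaching from 250 bases before to 50 bases after a transcription start. Tagln had no entry. A script searched them for an exact CArG box, which reads the same way on both strands. A CArG box was in 1 of the 11, that of Cnn2, and in 1.63% of all 32851 promoters. With 1 mismatch allowed, 5 of the 11 held a match, beside 21.1% of all promoters. The 3 calponin promoters are shown from 145 to 46 bases before the start, on the plus strand, because Cnn1 and Cnn2 had different patterns in the libraries. They are chr9:22099108-22099207 for Cnn1, chr10:79988455-79988554 for Cnn2 and chr3:121426396-121426495 for Cnn3, and capitals mark the CArG box.
Cnn1: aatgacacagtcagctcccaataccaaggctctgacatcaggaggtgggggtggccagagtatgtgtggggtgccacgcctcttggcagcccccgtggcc
Cnn2: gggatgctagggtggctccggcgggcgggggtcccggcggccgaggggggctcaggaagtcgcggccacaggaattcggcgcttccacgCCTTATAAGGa
Cnn3: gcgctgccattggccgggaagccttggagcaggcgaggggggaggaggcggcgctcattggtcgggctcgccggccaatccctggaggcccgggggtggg
The box of Cnn2 runs from base -56 to base -47. A match is a description of these letters, and its absence from a window of this length says nothing of SRF, which also acts through boxes farther from the start.

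Between the genotypes, 9 of the 10 genes had a lower mean in KO, and Cnn3 had a higher mean. In the fit of the 3 KO against the 3 Flox libraries none of the 10 passed an adjusted p of 0.05 in limma, beside 1.21% of all tested genes called lower and 1.23% called higher. At an unadjusted p under 0.05, 4 of the 10 were lower (Cnn2, Cald1, Tagln2 and Tpm4) and 0 were higher, beside 11.2% of all tested genes lower. The median log2 difference of the 10 was -0.52, and that of all tested genes -0.02. Much of it rested on replicate 1, since the median of the 10 was -0.11 in replicates 2 and 3 alone (all tested genes -0.06), -0.27 without Flox replicate 1 and -0.29 without KO replicate 1. Every KO library was below every Flox library for 4 of the 10 genes (Cnn2, Cald1, Tpm3 and Tpm4), beside 15.0% of all tested genes. In the same-numbered pairs, KO was below Flox in all 3 pairs for those 4 and for Tagln2, which is 5 of 10 genes beside 29.3% of all tested genes.

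Without a block the lowest p-values of the 10 were those of Cnn2 and Cald1. Cnn2, the calponin of non-muscle cells that is tied to stress fibers, measured 360, 398 and 395 FPKM in Flox replicates 1, 2 and 3 and 268, 246 and 277 FPKM in KO replicates 1, 2 and 3. The groups did not overlap, and each KO library held between 61.8% and 74.3% of its same-numbered Flox library. The difference was -0.54 ± 0.12 (SE), with an adjusted p of 0.0684 without a block and 0.0424 with the replicate block. Replicates 2 and 3 alone gave -0.60, with an adjusted p of 0.00994. The difference shrank to -0.37 (adjusted p = 0.166) after quantile normalization and to -0.42 (adjusted p = 0.110) after rescaling to TPM.

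Cald1, caldesmon, measured 497, 404 and 428 FPKM in Flox replicates 1, 2 and 3 and 279, 290.5 and 315 FPKM in KO replicates 1, 2 and 3. Again all KO libraries lay below all Flox libraries, with KO at 56.2% of Flox in the replicate 1 pair and at 71.9% and 73.7% in the others. The difference was -0.58 ± 0.13 (SE), with an adjusted p of 0.0757 without a block and 0.0488 with the replicate block. In replicates 2 and 3 alone it was -0.46, with an adjusted p of 0.0260. It was -0.39 (adjusted p = 0.226) after quantile normalization and -0.46 (adjusted p = 0.148) after rescaling to TPM. With the replicate block these 2 of the 10 genes were called lower, beside 5.72% of all tested genes. A block that separates replicate 1 from the others called the same number, 2, beside 11.1% of all tested genes. Replicates 2 and 3 alone called 3 lower, with Tagln2 added, beside 17.2% of all tested genes.

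The other genes found in most cell types did not pass the test with or without the replicate block. Tpm4, a tropomyosin of the cytoskeleton, measured 414, 395 and 373 FPKM in Flox and 310, 307 and 341 FPKM in KO, a difference of -0.30 ± 0.12 (SE; adjusted p = 0.216) that shrank to -0.11 after quantile normalization and -0.18 after rescaling to TPM. Tpm3 measured 195, 181 and 173 FPKM in Flox and 139, 166 and 154 FPKM in KO, a difference of -0.26 ± 0.12 (SE; adjusted p = 0.302) that was -0.14 after rescaling to TPM and -0.15 in replicates 2 and 3 alone. For both, the KO libraries lay just below the Flox libraries, and neither passed the test. Tagln2, the widely expressed transgelin, measured 168, 211 and 209 FPKM in Flox and 132, 170.5 and 115 FPKM in KO. KO replicate 2 was above Flox replicate 1, so the groups overlapped, and the difference of -0.50 ± 0.18 (SE) had an adjusted p of 0.200. Replicates 2 and 3 alone gave -0.58 with an adjusted p of 0.0495, just past the threshold. Cnn3 went the other way, with 165, 257 and 231 FPKM in Flox and 227, 262 and 313 FPKM in KO. It was higher in KO in all 3 pairs, with overlapping groups and a difference of 0.31 ± 0.21 (SE; adjusted p = 0.476), which was 0.12 without Flox replicate 1 and 0.19 without KO replicate 3.

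Tagln, Cnn1 and Tpm2 had another pattern, set by the replicate 1 pair. Tagln measured 80.5, 79.1 and 70.3 FPKM in Flox replicates 1, 2 and 3 and 12.5, 87.3 and 57.1 FPKM in KO replicates 1, 2 and 3. The low value of KO replicate 1 stood alone, at 15.5% of Flox replicate 1, while KO replicates 2 and 3 were at 110% and 81.3% of theirs. In fragments, Tagln had about 320 in KO replicate 1 and about 1659 to 2543 in the other libraries.

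Cnn1 measured 21.0, 4.86 and 5.11 FPKM in Flox replicates 1, 2 and 3 and 2.70, 5.07 and 4.32 FPKM in KO replicates 1, 2 and 3. Here both libraries of the pair were set apart, with Flox replicate 1 at 4.22 times the mean of Flox replicates 2 and 3 and KO replicate 1 at 57.5% of the mean of KO replicates 2 and 3. Cnn1 was the least deeply measured of the 10, with about 105 fragments in KO replicate 1 and 899 in Flox replicate 1. Tpm2, the tropomyosin that pairs with Tpm1 in smooth muscle, measured 104, 57.0 and 55.1 FPKM in Flox and 32.8, 55.4 and 55.5 FPKM in KO. Its replicates 2 and 3 were alike in both genotypes, while Flox replicate 1 was the highest library and KO replicate 1 the lowest.

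Over all 6 libraries none of these passed the test. The differences were -0.92 ± 0.65 for Tagln (SE; adjusted p = 0.496), -0.91 ± 0.53 for Cnn1 (SE; adjusted p = 0.399) and -0.56 ± 0.32 for Tpm2 (SE; adjusted p = 0.386). In replicates 2 and 3 alone they were -0.08 for Tagln, -0.07 for Cnn1 and -0.02 for Tpm2, with 95% intervals of -0.55 to 0.40, -0.38 to 0.23 and -0.24 to 0.21. In the replicate 1 pair they were -2.60, -2.57 and -1.64.

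The replicate 1 pair therefore differed from the mean of the other pairs by -2.52 for Tagln, -2.50 for Cnn1 and -1.62 for Tpm2. For the other 7 genes this contrast ranged from -0.46 for Tpm1 to 0.23 for Cnn3, and it was 0.17 for Cnn2 and -0.37 for Cald1. Large contrasts were not particular to these families, since the libraries numbered 1 stood apart over all genes. Among the genes of the lists, it was -3.02 for Myl9, -2.24 for Thy1 and -2.02 for Tnnt2. In the other direction it was 1.95 for Csrp2 and 1.63 for Pdgfra. These contrasts are given as a description. Replicate 1 holds 1 library of each genotype and was singled out because it stood apart. A test of the contrast would draw its spread from replicates 2 and 3 alone, so p-values of the contrast are not given. The adjusted p-values given for replicates 2 and 3 alone are of the genotype difference and share that narrow spread.

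**Figure D2:**
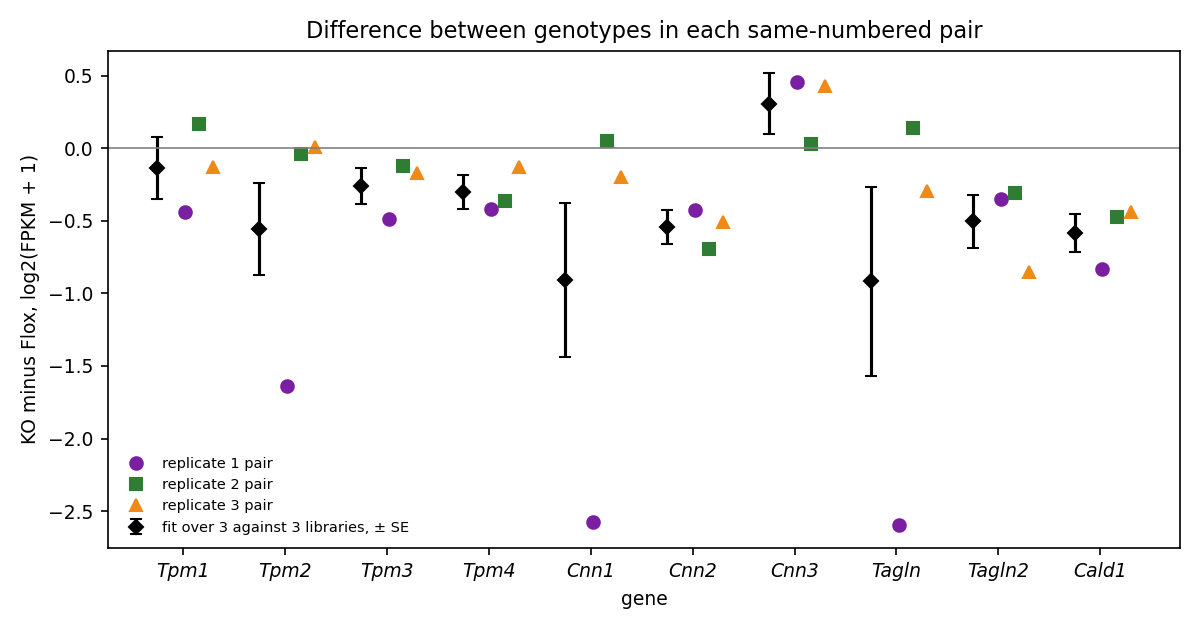
Difference between KO and Flox in log2(FPKM + 1) for each gene, as the fitted difference over 3 against 3 libraries with its SE (black diamonds) and as the difference within each same-numbered pair (circles, squares and triangles for replicates 1, 2 and 3). Cald1 and Cnn2 lie below 0 in all 3 pairs, whereas Tagln, Cnn1 and Tpm2 lie at -2.60, -2.57 and -1.64 in the replicate 1 pair and between -0.29 and 0.14 in the others.

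Tpm1, the most abundant of the 10 and the partner of Tpm2, did not share that pattern in KO. It measured 743, 473.5 and 477 FPKM in Flox replicates 1, 2 and 3 and 548, 531 and 437 FPKM in KO replicates 1, 2 and 3. Flox replicate 1 was high, but KO replicate 1 was not low. The difference was -0.13 ± 0.21 (SE; adjusted p = 0.788), and its direction turned with the setting, to 0.02 in replicates 2 and 3 alone, 0.08 after quantile normalization and 0.08 without Flox replicate 1.

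**Figure D3:**
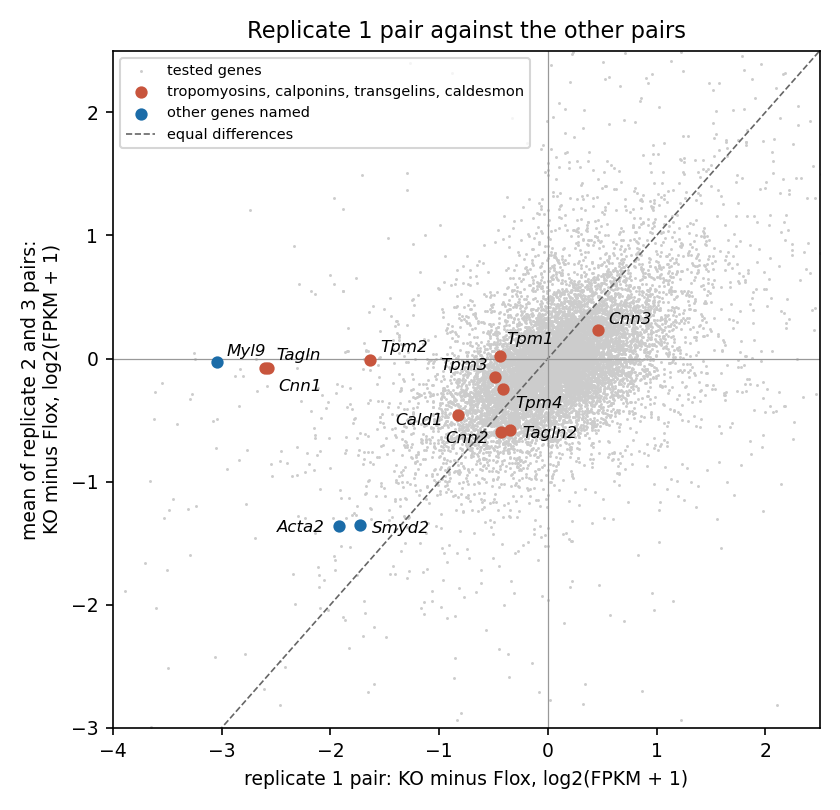
Difference between KO and Flox in the replicate 1 pair (horizontal axis) against the mean of the replicate 2 and 3 pairs (vertical axis), both in log2(FPKM + 1), for 12565 tested genes in grey, of which 120 lie outside the axes, with the 10 genes in red, other named genes in blue and equal differences on the dashed line. Tagln, Cnn1, Tpm2 and Myl9 lie far to the left at a height near 0, while Acta2 and Smyd2 lie near the dashed line.

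The share of each paralog in the summed FPKM of its family was taken in every library. Of the tropomyosins, Tpm1 made up 42.8% to 53.2% and Tpm4 28.4% to 35.7% in the 6 libraries, and Tpm2 had 7.14%, 5.15% and 5.11% in Flox and 3.18%, 5.23% and 5.62% in KO. The sum of the 4 tropomyosins was 1455, 1106 and 1078 FPKM in Flox and 1029, 1060 and 987 FPKM in KO. Among the calponins, Cnn2 held 65.9%, 60.4% and 62.6% in Flox and 53.8%, 47.9% and 46.6% in KO, and Cnn3 held 30.2%, 38.9% and 36.6% in Flox and 45.7%, 51.1% and 52.6% in KO. Cnn2 thus made up the larger part of calponin mRNA in all Flox libraries, and in KO replicates 2 and 3 Cnn3 did. The groups did not overlap in either share, and no test of these shares was planned. Cnn2 and Cnn3 made up nearly all calponin FPKM, so either share nearly fixes the other. Cnn1 never exceeded 3.85% of calponin FPKM. Tagln made up 32.4%, 27.3% and 25.2% of transgelin FPKM in Flox and 8.64%, 33.9% and 33.1% in KO, so that only KO replicate 1 fell outside the range of 25.2% to 33.9% spanned by the other 5 libraries.

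**Figure D4:**
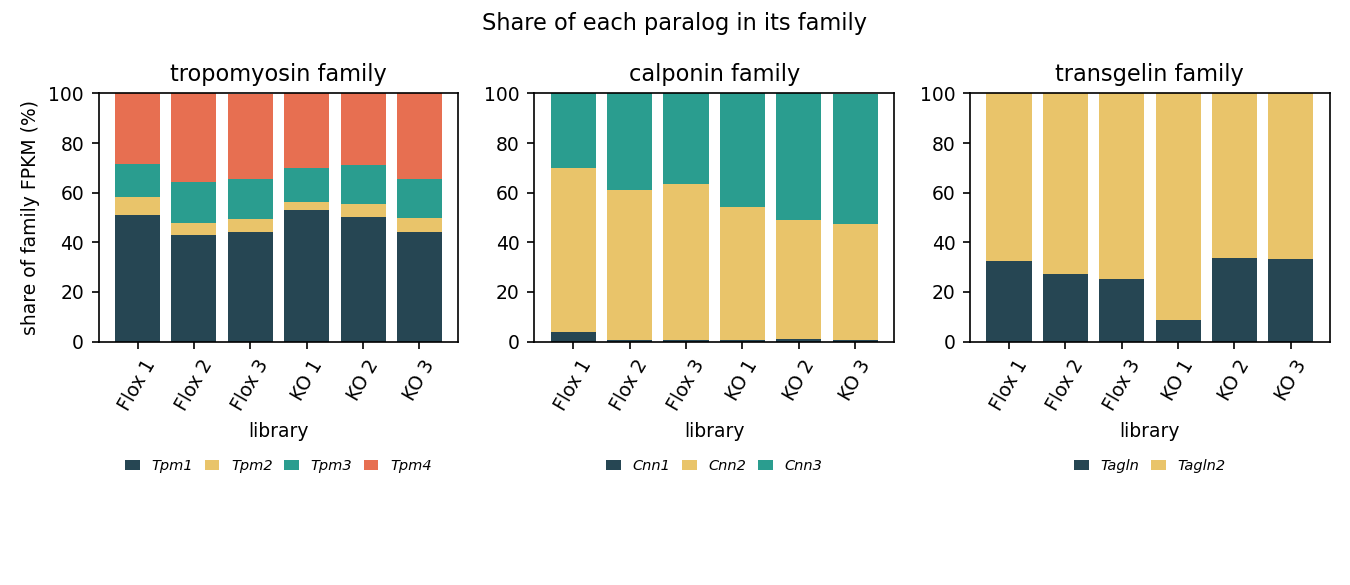
Share of each paralog in the summed FPKM of its family, in percent, for the tropomyosins, calponins and transgelins in each of the 6 libraries. Cnn2 takes 60.4% to 65.9% of calponin FPKM in Flox and 46.6% to 53.8% in KO, and Tagln takes 8.64% of transgelin FPKM in KO replicate 1.

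The log2 ratio of smooth muscle to widely expressed paralogs, without a pseudocount, was compared within each family, in 3 ratios, by exact two-sided permutation tests, for which 3 against 3 libraries cannot give a p below 0.1. The ratio of Tagln to Tagln2 was -1.06, -1.41 and -1.57 in Flox and -3.40, -0.97 and -1.02 in KO. KO replicate 1 was the lowest library and KO replicates 2 and 3 the highest, so the difference of -0.44 (exact permutation p = 1) turned to 0.50 in replicates 2 and 3 alone and to 0.36 without KO replicate 1. The ratio of Cnn1 to the sum of Cnn2 and Cnn3 was -4.64, -7.07 and -6.94 in Flox and -7.52, -6.65 and -7.09 in KO. It was set apart in Flox replicate 1, and the difference of -0.87 (exact permutation p = 0.4) was 0.14 in replicates 2 and 3 alone and -0.08 without Flox replicate 1. The ratio of Tpm1 and Tpm2 to Tpm3 and Tpm4 was 0.48, -0.12 and -0.04 in Flox and 0.37, 0.31 and -0.01 in KO, a difference of 0.12 (exact permutation p = 0.7), which was 0.23 in replicates 2 and 3 alone, 0.30 without Flox replicate 1 and 0.01 without Flox replicate 2. After adjustment over the 3 ratios each p was 1, and the p-values in a design of this size do not show that the ratios are alike.

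The genes around these families on the thin filament were taken from lists. Of 6 actins, 5 were in the table and 4 were tested. Acta2 was called lower, with a difference of -1.55 ± 0.15 (SE; adjusted p = 0.00803), and the other 3 were not called. That is 1 of 4, beside 1.21% of all tested genes called lower. All KO libraries, at 201 to 268 FPKM, lay far below all Flox libraries, at 682 to 761 FPKM. The difference in replicates 2 and 3 alone was -1.36 (adjusted p = 0.000241). The call was lost, at adjusted p of 0.0541, 0.0615 and 0.0533, without Flox replicate 2, Flox replicate 3 or KO replicate 3, with differences of -1.57, -1.57 and -1.61. Acta2 was thus lower in KO in replicates 2 and 3 as well, where Tagln, Cnn1 and Tpm2 had similar values. The most abundant actins, Actg1 and Actb, had differences of -0.35 and -0.14 (adjusted p = 0.240 and 0.653). The median difference of the tested actins was -0.66.

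Of 26 other contractile and thin filament genes, 21 were tested. Without a block 2 were called lower and 0 higher, beside 1.21% and 1.23% of all tested genes, and with the replicate block 8 were lower and 0 higher, beside 5.72% of all tested genes lower. Their median difference was -0.34. Csrp1, a LIM protein of smooth muscle that binds alpha-actinin, measured 362, 376 and 325 FPKM in Flox and 127, 180 and 144 FPKM in KO, a difference of -1.24 ± 0.16 (SE; adjusted p = 0.0183). It lost the call without Flox replicate 2, Flox replicate 3 or KO replicate 3 (adjusted p = 0.10, 0.0914 and 0.114), with differences of -1.20, -1.30 and -1.22. Cfl1, the filament-severing protein cofilin, measured 1793, 1251 and 1274 FPKM in Flox and 720, 706 and 663 FPKM in KO. All 3 KO libraries were far below Flox, with a difference of -1.03 ± 0.17 (SE; adjusted p = 0.0402), which no longer passed after quantile normalization, where the difference itself shrank to -0.65 (adjusted p = 0.165), after rescaling to TPM (-0.90, adjusted p = 0.0562) or without the filter on low FPKM (adjusted p = 0.0572). It also lost the call without Flox replicate 2, Flox replicate 3, KO replicate 2 or KO replicate 3 (adjusted p = 0.107, 0.134, 0.156 and 0.183), though the differences then ranged only from -1.12 to -0.99. With the replicate block, lower calls were also made for Ppp1r14a, an inhibitor of myosin phosphatase (-1.35, adjusted p = 0.0444), Pdlim7 (-0.70, adjusted p = 0.0380), the myosin light chain Myl6 (-0.60, adjusted p = 0.0442) and the myosin phosphatase subunit Ppp1r12a (-0.55, adjusted p = 0.0352). None of those 4 passed over all 6 libraries without the block. In replicates 2 and 3 alone all 4 passed (adjusted p = 0.00649, 0.0199, 0.0107 and 0.0181).

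Of 7 tropomodulins and leiomodins, which cap or nucleate tropomyosin-coated filaments, 3 were tested and 0 were called in either direction, with or without the block, and their median difference was 0.24. Of 8 troponins, the calcium sensors of striated muscle, 3 were tested and 0 were called, with a median difference of -0.34. Of 12 genes for SRF, the myocardin family and their partners and repressors, 11 were tested and 0 were called without a block. With the replicate block Gata6, a transcription factor of VSMCs, was called higher (0.67, adjusted p = 0.0314), 1 of 11 beside 4.72% of all tested genes. It measured 38.5, 66.8 and 64.4 FPKM in Flox and 54.4, 116 and 108 FPKM in KO. Its difference was 0.42 without Flox replicate 1 and 1.01 without KO replicate 1, in fits without a block. The median difference of the 11 was 0.09, but -0.14 in replicates 2 and 3 (all tested genes -0.06). Srf itself measured 34.3, 28.0 and 24.97 FPKM in Flox and 17.5, 18.8 and 19.2 FPKM in KO, which do not overlap, with an adjusted p of 0.0829. It is named after its values were seen.

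The genes with the nearest profiles over the 6 libraries were sought among 8763 other genes averaging 5 FPKM or more, by the root mean square difference of log2(FPKM + 1) centred on each gene's mean. Nearest to Tagln were Myl9 (0.23), the regulatory light chain of smooth muscle myosin, Plxdc2 (0.23) and Dusp5 (0.30). Myl9 measured 93.1, 71.3 and 70.5 FPKM in Flox and 10.4, 68.5 and 70.4 FPKM in KO, and so shared the single low value of KO replicate 1. Nearest to Cnn1 were Hbegf (0.16), a locus without a gene name (0.20) and Etv4 (0.22). Hbegf, a growth factor, measured 20.0, 6.47 and 5.58 FPKM in Flox and 2.51, 6.01 and 4.15 FPKM in KO. Nearest to Tpm2 were Jun (0.08), Errfi1 (0.10) and Smad7 (0.16). Jun, a subunit of the transcription factor AP-1, measured 24.9, 14.4 and 13.6 FPKM in Flox and 7.32, 14.4 and 11.9 FPKM in KO, again high in Flox replicate 1 and low in KO replicate 1. Nearest to Tpm1 were Abce1 (0.04), Topbp1 (0.05) and Ppp5c (0.06), and nearest to Cald1 were Pitpnm1 (0.05), Ddb1 (0.06) and Psip1 (0.06). None of the 15 was another of the 10 genes.

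Markers of other cell types were read beside these results. The 10 fibroblast markers summed to 742, 1436 and 1340 FPKM in Flox and 1420, 1435 and 1061 FPKM in KO, with 9 tested, and the most abundant was Col1a1 at 362, 444 and 491 FPKM in Flox and 1333, 831 and 522 FPKM in KO (difference 0.96, adjusted p = 0.186, and 0.49 in replicates 2 and 3 alone). Dpt was called lower without a block (-5.28, adjusted p = 0.00417), at 144, 90.3 and 65.5 FPKM in Flox and 3.31, 1.15 and 0.63 FPKM in KO. Cd34 (-2.85, adjusted p = 0.0269) and Ly6a (-1.09, adjusted p = 0.0404) were called lower with the replicate block. Over all 6 libraries neither passed without the block (adjusted p = 0.0669 and 0.552), but both passed in replicates 2 and 3 alone (-2.26 and -1.37). The Ly6a difference was -1.99 without Flox replicate 1 and -0.46 without KO replicate 1. Of the 9 tested, 1 was called lower without the block and 3 with it, beside 1.21% and 5.72% of all tested genes. The list was split, with 6 of the 9 tested markers lower in KO by their difference and 3 higher (Col1a1, Dcn and Lum). Dcn and Lum are named after their values were seen. Dcn was at 13.9, 311 and 257 FPKM in Flox and 25.6, 383 and 350 FPKM in KO, so that it was low in both libraries of replicate 1 and higher in KO in all 3 pairs (0.53, adjusted p = 0.890 without and 0.0702 with the replicate block). Lum was at 0, 1.31 and 1.17 FPKM in Flox and 0.26, 14.5 and 10.4 FPKM in KO (1.82, adjusted p = 0.342). The median difference of the 9 tested markers was -1.32, beside -0.02 for all tested genes, and it was -0.57 in the replicate 1 pair and -1.37 in replicates 2 and 3. By the methods of the study the adventitia was taken off the aortas, and each batch of cells was checked for purity by staining for smooth muscle actin. The part of such cells in the results on the 10 genes was not tested.

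The 10 endothelial markers summed to between 2.15 and 5.84 FPKM in a library, 1 was tested, and 0 were called without a block or with the replicate block. That gene, Kdr, had the highest mean over the 6 libraries, at 0.47, 0.58 and 0.84 FPKM in Flox and 0.96, 5.15 and 2.96 FPKM in KO (difference 1.16, adjusted p = 0.186). All KO libraries were above all Flox libraries, and Kdr passed in replicates 2 and 3 alone (1.53, adjusted p = 0.00260), with a block for replicate 1 (adjusted p = 0.0349) and without KO replicate 1 (1.60, adjusted p = 0.0277). Pecam1, named after its values were seen and too low to test, went the other way, at 0.56, 0.88 and 0.92 FPKM in Flox, above Kdr, and 0.12, 0.18 and 0 FPKM in KO. Cdh5 and Tie1 did not exceed 0.01 FPKM. The 7 macrophage markers summed to 42.7, 30 and 26.7 FPKM in Flox and 40.9, 18.3 and 22.8 FPKM in KO, with 4 tested, 0 called and a median difference of -0.20. Cd14, which other cells also express, made up most of that sum, while Ptprc and Adgre1 were at most 0.02 FPKM. Cd68 was at 2.93 to 4.87 FPKM and Lyz2 at 1.01 to 4.04 FPKM, with differences of -0.004 and -0.64. Among the 4 tested only Csf1r had a positive difference (0.65, adjusted p = 0.102). It measured 0.58, 0.53 and 0.48 FPKM in Flox and 1.66, 1.42 and 1.14 FPKM in KO. Of 11 skeletal and cardiac muscle markers 8 were in the table and 1 was tested, Tnnt2, at 29.1, 8.17 and 7.51 FPKM in Flox and 3.44, 4.13 and 4.43 FPKM in KO (difference -1.42, adjusted p = 0.173, and -0.74 with an adjusted p of 0.00406 in replicates 2 and 3 alone). Ckm, Actn2 and Ryr2 did not exceed 0.06 FPKM.

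Some of the values rest on sequence that other genes share. Of the stretches of 100 bases in the coding transcripts of Tpm3, 27.6% also occur in Tpm3-rs7, and of those of Tagln 32.7% occur in transcripts of its neighbour Pcsk7 or of Gm48529 on either strand. Pcsk7 itself measured 11.3, 9.92 and 9.95 FPKM in Flox and 14.5, 10.1 and 10.2 FPKM in KO, while Tagln ranged from 12.5 to 87.3 FPKM. Any part of this overlap in the Tagln values was not tested. Cnn3 and Tpm4 shared 10.8% and 9.36% of their stretches with less studied loci, and the other 6 genes shared none with another gene. The values of Tpm3 and Tagln are uncertain to the extent that fragments from those stretches were divided between genes.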

How the data were processed

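FPKM values of 18112 genes in 6 libraries were deposited by the authors, who used SOAPnuke for read filtering, HISAT and Bowtie2 for mapping and RSEM for quantification. Tool versions, the genome build and whether strand was used are not given in the sources used here. Samples were grouped by their labels. Values were taken as log2(FPKM + 1), the 12565 genes averaging 0.5 FPKM or more were fitted with limma 3.58.1 in R 4.3.3 (eBayes with trend and robust settings), and p-values were adjusted by Benjamini-Hochberg over all of them. The fit was also run on simulated data. Those held no replicate effect, so they are no check of the fit under the shift of replicate 1. Genes were called at an adjusted p under 0.05. The members and lists were chosen with earlier results of these data known.

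Genes named by rule are the 10 members, Smyd2, up to 6 genes of each list with an adjusted p under 0.05 without or with the replicate block, the most abundant gene of each marker list, and the 3 nearest profiles of 5 members. Other genes, such as Myh11, Myocd, Des, Synpo2, Smtn, Mylk, Lmod1, Actg2, Actb, Actg1, Tagln3, Csf1r, Thy1, Csrp2, Pdgfra and Pcsk7, are named outside that rule, some after their values were seen. The replicate numbers come from the sample labels. Deviations of same-numbered libraries from their group means correlated across genes at 0.61, 0.46 and 0.53 for replicates 1, 2 and 3, but Flox replicate 2 with KO replicate 3 and Flox replicate 3 with KO replicate 2 reached 0.46 and 0.44. Only replicate 1 is thus set apart, and the pairing of numbers 2 and 3 rests on the labels. A fit with the replicate block was made. Alternatives were a pseudocount of 0.1, no filter, the replicate block, a block for replicate 1, replicates 2 and 3 alone, quantile normalization, rescaling to TPM, leaving out each library, the methods' cutoffs (fold change above 2, adjusted p under 0.01) and, for the ratios, a pseudocount of 1. For the contrast of the replicate 1 pair with the others, the interaction term in limma, p-values were not used, and rescaling to TPM and leaving out libraries of replicates 2 and 3 were added after seeing the data.

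Depth was estimated from low FPKM values of 4343 genes with 1 listed transcript of known length, less 70 bases, the value that made most of them whole. At the depth chosen, 71.8% to 77.4% of the 118 to 166 low values of a library came out whole to within 0.15 fragments. Depth and bases were chosen for that share, so it is no independent check, and fragment numbers are approximate and cover counting error only. Those of genes with several transcripts use the shortest. Promoters came from RefSeq. Python 3.11.15, numpy 2.4.6, pandas 2.3.3, scipy 1.17.1 and matplotlib 3.10.9 were used.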

Additional observations from a re-analysis of the deposited data

How the results depend on the processing

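The number of genes called among 12565 moved with the setting, from 306 to 1312 with the replicate block, 2550 with a block for replicate 1, 3650 with replicates 2 and 3 alone and 53 at the methods' cutoffs, and from 34 to 686 when each library was left out. Rescaling to TPM raised the median of all genes from -0.02 to 0.10 and moved the share of lower calls from 49.7% to 28.6%. Under it the median of the 10 genes was -0.40. The number of the 10 called lower was 2 with the replicate block, 2 with a block for replicate 1, 3 with replicates 2 and 3 alone and 0 without each library in turn. Paired by the replicate block, Cnn2 (-0.54) and Cald1 (-0.58) passed, as with the block for replicate 1 (-0.54 and -0.58). The block changed no other call among the 10 genes. Replicates 2 and 3 alone gave -0.60 for Cnn2, -0.46 for Cald1 and -0.58 for Tagln2, all past the threshold.

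Tpm1 changed direction with replicates 2 and 3 alone (0.020) and after quantile normalization (0.079), and ranged from -0.24 to 0.081 when each library was left out. The ratio of Tagln to Tagln2 turned to 0.50 and that of Cnn1 to Cnn2 and Cnn3 to 0.14 with replicates 2 and 3 alone, and the former ranged from -0.86 to 0.36 over the left-out libraries. The contrast of the replicate 1 pair with the others ranged from -2.82 to -2.22 for Tagln and from -0.053 to 0.51 for Tagln2 without each library of replicates 2 and 3. The cause of these changes was not tested.

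With 3 libraries a group the differences of Tpm3 and Tpm4 did not pass the adjusted test. In replicates 2 and 3 alone they were -0.15 and -0.25 and did not pass either (adjusted p = 0.359 and 0.171). FPKM of a gene cannot show a switch between its isoforms. The approximate depth gave Cnn1 about 105 to 899 fragments, so its ratios are the least precise.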
